A study of Mus musculus with 10 samples.

Results

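The integrin and laminin genes were followed in RNA from mouse CD4+ T cells. Members were all rows whose symbol names an integrin alpha chain, an integrin beta chain or a laminin chain. The rule uses symbols alone, but these families were chosen with earlier results of these data known. This gave 37 of the 17457 genes in the table, namely 18 alpha chains, 8 beta chains and 11 laminin chains. The cells came from lymph nodes or spleen of 6 TEST and 4 CONTROL samples in a study of T cell immunity against breast tumours that is driven by TSLP, a cytokine of epithelial cells. Going by the labels, which differ here from the study's text, the sorted cells spent 5 h in culture with antibodies to CD3 and CD28, IL-2 and TSLP. The text instead calls them freshly sorted.

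TEST 1, TEST 2 and TEST 3 were C57BL/6 hosts of genotype K14-TSLP +/tg, TSLPR -/- that received Ly5.1 CD4+ T cells. In these hosts, skin keratinocytes made TSLP through the K14 promoter, and only the transferred T cells had its receptor. TEST 1 (draining lymph node) and TEST 2 (non-draining node) were pooled from the same 4 mice, and TEST 3 (non-draining node) was a pool of 2 mice. TEST 4 was 1 C57BL/6 mouse with K14-TSLP +/tg, MMTV-PyMT +/tg and TSLPR +/-, where MMTV-PyMT is an oncogene that gives spontaneous breast tumours. TEST 5 was 1 Balb/c mouse, K14-TSLP +/tg, MMTV-PyMT +/tg, Rag1 -/-, which lacks T and B cells of its own and received CD4+ T cells. TEST 6 was 1 Balb/c mouse, K14-TSLP +/tg, MMTV-PyMT +/tg, Rag1 +/-. CONTROL 1 (draining node, 4 mice pooled) and CONTROL 2 (1 mouse) were C57BL/6 TSLPR -/- hosts of TSLPRKO CD4+ T cells. CONTROL 3 was the spleen of 1 C57BL/6 mouse, K14-TSLP +/tg, MMTV-PyMT +/tg, TSLPR -/-. CONTROL 4 was 1 Balb/c mouse labelled Rag1 +/-, and its label names neither K14-TSLP, MMTV-PyMT nor a TSLPR allele. The 4 CONTROL libraries thus differ from each other in TSLPR, K14-TSLP, MMTV-PyMT, origin of the T cells, tissue and strain. CONTROL 3 is the only spleen library. Every TEST label names K14-TSLP, and among the CONTROL labels only that of CONTROL 3 does. The hosts of TEST 1 to TEST 3, CONTROL 1 and CONTROL 2 had been given PyMT tumours, and the labels' protocol, which is the same for all samples, has cells sorted at the stage of terminal tumours.

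Integrins are cell surface receptors made of an alpha and a beta chain, and the pair decides what a T cell can hold on to. Itgal with Itgb2 binds ICAMs on other cells, Itga4 with Itgb1 or Itgb7 binds VCAM1, fibronectin or MAdCAM1, and Itgae (CD103) with Itgb7 binds E-cadherin on epithelium. Laminins are trimers of an alpha, a beta and a gamma chain in basement membranes, where they are ligands of integrins such as Itga6 with Itgb1. Laminins of the Lama5 chain lie in vessel walls and in lymph node stroma.

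The upstream sequences of 3 members are shown because Lama5 was the 1 member called between the groups, and Itgb1 and Itga4 were the beta and alpha chain with the next clearest differences in opposite directions among those in the sequence table. Each is the 250 bases before a transcript start in RefSeq on GRCm38.p6, 5′ to 3′ on the strand of the gene. Lama5 is at chr2:180225860-180226109 (minus strand), Itgb1 at chr8:128685404-128685653 (plus strand) and Itga4 at chr2:79255176-79255425 (plus strand). Capitals mark matches on either strand to the letters GGGCGG (a GC box) or TGTGGT (the core of RUNX sites), and 2 more motifs, GATAA (GATA) and TTCNNNGAA (STAT), were searched and have no match in these 3 windows.
Lama5: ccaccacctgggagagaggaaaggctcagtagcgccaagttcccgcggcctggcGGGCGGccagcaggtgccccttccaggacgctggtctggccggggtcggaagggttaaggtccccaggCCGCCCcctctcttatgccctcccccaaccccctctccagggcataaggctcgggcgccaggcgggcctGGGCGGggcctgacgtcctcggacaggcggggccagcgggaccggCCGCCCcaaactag
Itgb1: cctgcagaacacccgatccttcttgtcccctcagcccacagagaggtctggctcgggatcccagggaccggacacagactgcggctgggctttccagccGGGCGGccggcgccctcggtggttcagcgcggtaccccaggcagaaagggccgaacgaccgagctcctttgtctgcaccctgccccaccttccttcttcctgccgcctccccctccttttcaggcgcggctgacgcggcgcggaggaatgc
Itga4: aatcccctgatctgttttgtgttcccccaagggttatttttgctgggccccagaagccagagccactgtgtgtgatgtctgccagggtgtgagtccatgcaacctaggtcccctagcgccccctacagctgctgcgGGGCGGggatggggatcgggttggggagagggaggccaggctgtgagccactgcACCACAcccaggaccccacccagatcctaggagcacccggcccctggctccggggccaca
Lama5 holds 4 GC boxes, which begin 196, 128, 59 and 14 bases before the start, and 72.4% of its letters are G or C, against a median of 52.4% over all 32851 windows of this kind. Itgb1 holds 1 GC box at 151 bases and is 68.0% G or C. Itga4 holds a GC box at 114 bases and the RUNX letters at 60 bases, and is 64.0% G or C. GC boxes were in 32.7% of all windows, RUNX letters in 14%, GATA letters in 22.6% and STAT letters in 7.0%. The table held a window for 23 of the 37 members, and a match is a description of the letters only.

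T cell markers were high in every library (Cd3e 190 to 991 FPKM, Cd4 104 to 193 FPKM) and of the CD8 T cell markers Cd8a was 0.2 to 1.33 FPKM and Cd8b1 0.63 to 5.12 FPKM. FPKM is the number of fragments divided by transcript length and by the library's mapped total, so levels of different genes can be compared per length. TEST 4 held less ribosomal RNA than the rest: the 4 rows of that kind made up 1.18% of its FPKM sum, against 10.7% to 26.0% elsewhere. B cell markers (4 genes) summed to 0.15 to 13.6 FPKM in TEST and 0.21 to 22.9 FPKM in CONTROL, the 2 highest being TEST 4 and CONTROL 2. In bulk RNA, fewer cells of a type and less RNA per cell cannot be told apart.

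Of the 37 members, 14 reached 1 FPKM in at least 4 libraries and were tested (37.8%, against 61.5% of all genes). They were 7 alpha chains (Itga2, Itga3, Itga4, Itga6, Itgae, Itgal and Itgav), 5 beta chains (Itgb1, Itgb2, Itgb3, Itgb7 and Itgb8) and 2 laminins (Lama5 and Lamc1). No laminin beta chain came above 1.44 FPKM.

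**Figure D1:**
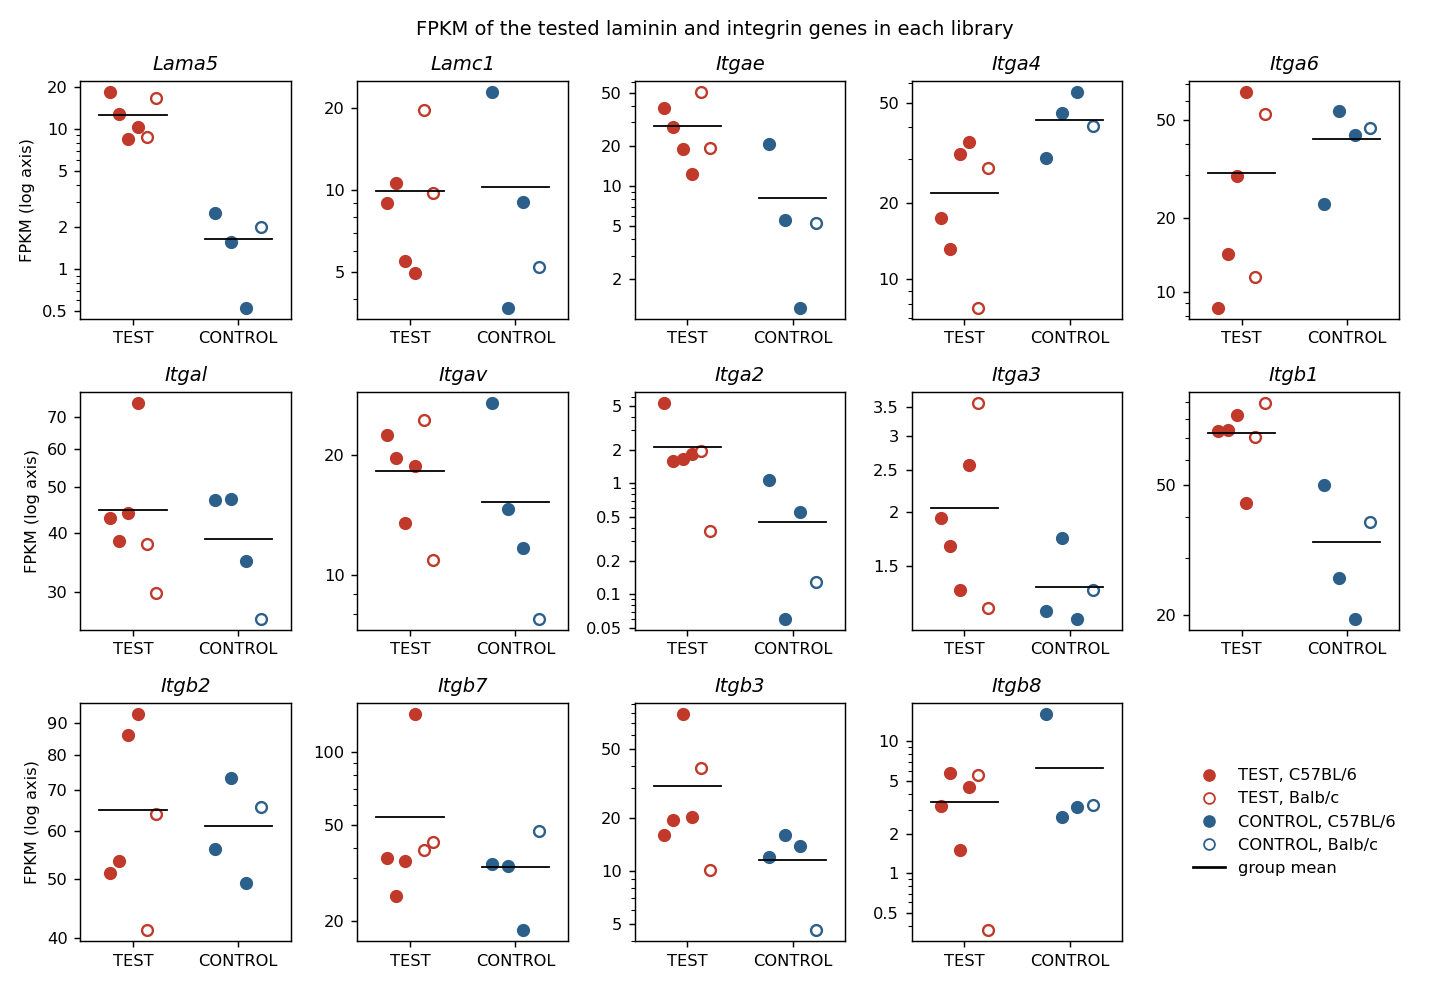
FPKM of the 14 tested members, on log axes, with 1 point for each of the 6 TEST and 4 CONTROL libraries (filled, C57BL/6, open, Balb/c) and a line at the group mean. Lama5 is the only panel in which every TEST library (8.47 to 18.4 FPKM) lies above every CONTROL library (0.53 to 2.5 FPKM).

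Among the laminins, Lama5, the alpha chain named above, rose in TEST cells. It had 18.4, 12.77, 8.47, 10.34, 8.83 and 16.54 FPKM in TEST 1 to TEST 6, against 2.5, 1.57, 0.53 and 2 FPKM in CONTROL 1 to CONTROL 4. Even the lowest TEST library, TEST 3, lay well above the highest CONTROL library, CONTROL 1, and the groups did not overlap. Means were 12.6 ± 4.14 FPKM in TEST and 1.65 ± 0.838 FPKM in CONTROL (SD, n = 6 and 4). On the log2(FPKM + 1) scale, which understates changes of low genes, the difference was 2.36 ± 0.31 (SE), a 5.15-fold higher level (limma, Benjamini-Hochberg adjusted p = 0.0247). By p it was the first of the 10743 genes tested. The gene lies at chr2:180176373-180225904 (GRCm38.p6, minus strand), and the microRNA gene Mir7005 lies within it.

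At an adjusted p under 0.05, limma called 10 genes, or 0.0931% of those tested, with 8 higher in TEST (0.0745%) and 2 lower in TEST (0.0186%). Lama5 was the only member among them, 1 of 14. TEST and CONTROL did not overlap in 1.48% of tested genes with TEST above and in 1.96% with TEST below, and of the tested members only Lama5 was among these. The call of Lama5 was lost without TEST 2 (adjusted p = 0.079), without CONTROL 2 (adjusted p = 0.168) or without the spleen library CONTROL 3 (adjusted p = 0.133) in limma, with differences of 2.35, 2.37 and 2.12. It was also lost within C57BL/6 (2.44, adjusted p = 0.0623), when TEST 1 and TEST 2, the same mice, were averaged (2.3, adjusted p = 0.0514), with a pseudocount of 5 (1.38, adjusted p = 0.0586) and with no filter on low values (2.36, adjusted p = 0.0508).

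Lama5 was also read by the origin of the cells. In hosts of transferred T cells it was 8.47 to 18.4 FPKM in TEST and 1.57 to 2.5 FPKM in CONTROL, and in mice with their own T cells it was 10.34 and 16.54 FPKM in TEST and 2 and 0.53 FPKM in CONTROL. Since the groups did not overlap over all 10 libraries, no split of them could overlap, so this reading adds no separate support. Epithelial markers (6 genes) summed to 6.09 to 14.3 FPKM in TEST and 2.22 to 15.4 FPKM in CONTROL, with CONTROL 1 the highest of all 10. Epcam was 4.08 to 12.49 FPKM in TEST, highest in TEST 4, and 1.21 to 7.6 FPKM in CONTROL. Krt18 was 0.53 to 2.16 FPKM in TEST and 0.2 to 6.04 FPKM in CONTROL, highest in CONTROL 1, and Krt8 was 0.3 to 1.86 FPKM in TEST and 0.15 to 1.16 FPKM in CONTROL. Krt5 and Krt19 stayed under 1 FPKM and Krt14 was listed at 0 in every library. The part of epithelial cells in the Lama5 levels was not tested. Stromal markers (Pdgfra, Pdgfrb, Col1a1, Col1a2, Dcn and Pdpn) were all under 1 FPKM. Of 5 endothelial markers, Cdh5, Kdr, Tek and Emcn were under 1 FPKM as well, and Pecam1, which T cells also express, was 16.8 to 70.35 FPKM in TEST and 28.54 to 37 FPKM in CONTROL. The part of such cells in the Lama5 levels was not tested either.

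Lamc1, the gamma chain shared by most laminins, was 4.99 to 19.67 FPKM in TEST (mean 9.92 ± 5.3, SD, n = 6) and 3.71 to 22.91 FPKM in CONTROL (mean 10.2 ± 8.75, n = 4). The ranges overlapped almost wholly, and the log2 difference was 0.12 ± 0.44, with its sign depending on scaling and libraries. Lama5 over Lamc1 was 0.449 to 2.07 in TEST and 0.0584 to 0.423 in CONTROL, without overlap. Lama5 made up 30.3% to 66.2% of the summed laminin FPKM in TEST and 5.26% to 26.6% in CONTROL. Within TEST, the lowest ratio was that of TEST 5, where Lamc1 was highest (19.67 FPKM).

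Other laminins were hardly detected. Lama4 and Lamc3 were at 0 FPKM in every library. Lama1, Lama2 and Lama3 stayed at or under 0.26 FPKM, Lamb1 was 0.09 to 0.31 FPKM and Lamb2 at most 0.29 FPKM. Lamb3 reached 1.44 FPKM in TEST 4 and at most 0.46 FPKM elsewhere. A beta chain, which the trimer needs, was thus measured only at low levels.

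Itgb1, the beta chain of most matrix receptors, had 73.23, 74.06, 82.33, 44.02, 70.25 and 89.56 FPKM in TEST 1 to TEST 6, against 50.28, 25.88, 19.42 and 38.6 FPKM in CONTROL 1 to CONTROL 4. Only TEST 4 lay below a CONTROL library, CONTROL 1. Means were 72.2 ± 15.5 FPKM in TEST and 33.5 ± 13.7 FPKM in CONTROL (SD, n = 6 and 4). The log2 difference of 1.14 ± 0.27 (SE), or 2.2-fold, did not pass the test (limma adjusted p = 0.137, unadjusted 0.000926). When single libraries were left out it was 0.92 (without CONTROL 3, limma adjusted p = 0.35) to 1.36 (without CONTROL 1, limma adjusted p = 0.0522). It passed only without TEST 4 (1.27, limma adjusted p = 0.0397), where 84 genes in all were called in place of 10.

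Itgae, the alpha chain for E-cadherin, had 38.64, 27.85, 18.82, 12.31, 50.77 and 19.19 FPKM in TEST 1 to TEST 6, against 20.47, 5.58, 1.22 and 5.32 FPKM in CONTROL 1 to CONTROL 4. CONTROL 1 lay within the TEST range and the other 3 CONTROL libraries lay below it, with the spleen lowest. Means were 27.9 ± 14.4 FPKM in TEST and 8.15 ± 8.45 FPKM in CONTROL (SD, n = 6 and 4). The log2 difference was 1.97 ± 0.52 (SE), or 3.91-fold, and did not pass (limma adjusted p = 0.148). When single libraries were left out it was 1.44 (without the spleen, CONTROL 3, limma adjusted p = 0.371) to 2.53 (without CONTROL 1, limma adjusted p = 0.0307), and it passed only without CONTROL 1. Regulatory T cells often carry CD103, and the 4 regulatory T cell markers summed to 302 to 758 FPKM in TEST and 341 to 980 FPKM in CONTROL, CONTROL 1 being the highest. Foxp3 was 21.9 (TEST 3) to 105.66 FPKM (TEST 5) in TEST. In CONTROL 1 to CONTROL 4 it was 233, 64.49, 80.81 and 164.82 FPKM. Il2ra was 95.2 to 500.31 FPKM in TEST, highest in TEST 5, and 55.86 to 187.24 FPKM in CONTROL. Ctla4 was 95.57 to 208.91 FPKM in TEST and 120.79 to 485.79 FPKM in CONTROL. Ikzf2 was 14.89 to 47.73 FPKM in TEST and 18.04 to 75.67 FPKM in CONTROL. The part of regulatory T cells in the Itgae levels was not tested. On the genome, Itgae (chr11:73090505-73147449) overlaps Haspin on the other strand, and no source used here says whether the counting used strand.

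Itga4, the alpha chain for VCAM1 and fibronectin, had 17.51, 13.19, 31.36, 34.78, 7.7 and 27.49 FPKM in TEST 1 to TEST 6, against 30.12, 45.43, 55.11 and 40.3 FPKM in CONTROL 1 to CONTROL 4. TEST 3 and TEST 4 lay above CONTROL 1 and below the other CONTROL libraries, and the spleen was highest. Means were 22.0 ± 10.8 FPKM in TEST and 42.7 ± 10.4 FPKM in CONTROL (SD, n = 6 and 4). The log2 difference was -1.06 ± 0.36 (SE), or 2.08-fold lower in TEST, which did not pass (limma adjusted p = 0.251). Itga4 (chr2:79255426-79333114) overlaps Cerkl on the other strand, itself at 0.11 to 4.77 FPKM.

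Itgae over Itga4 therefore ran from 0.354 in TEST 4 to 6.59 in TEST 5 among TEST libraries, and from 0.0221 in CONTROL 3 to 0.68 in CONTROL 1 among CONTROL libraries. TEST 1 and TEST 2 stood at 2.21 and 2.11, and TEST 3 and TEST 6 at 0.6 and 0.698. The groups overlapped through CONTROL 1, which was above TEST 3 and TEST 4.

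Itga2, which with Itgb1 binds collagen, had 5.3, 1.58, 1.65, 1.83, 1.96 and 0.37 FPKM in TEST 1 to TEST 6, against 1.07, 0.06, 0.55 and 0.13 FPKM in CONTROL 1 to CONTROL 4. Only TEST 6 lay within the CONTROL range. The log2 difference was 1.01 ± 0.38 (SE), or 2.01-fold, and did not pass (limma adjusted p = 0.284). Its levels were low, and it did not pass a filter at 5 FPKM.

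Itgb3, a partner of Itgav for vitronectin and fibronectin, had 16.1, 19.55, 78.93, 20.29, 38.97 and 10.11 FPKM in TEST 1 to TEST 6, against 11.96, 15.99, 13.9 and 4.6 FPKM in CONTROL 1 to CONTROL 4. TEST 3 and TEST 5 were far above the rest, and TEST 6 lay within the CONTROL range. The log2 difference was 1.12 ± 0.48 (SE) and did not pass (limma adjusted p = 0.33). Itgb3 is also a platelet integrin, with Itga2b as partner. Platelet markers (5 genes found) summed to 0.11 to 1.31 FPKM in TEST and 1.0 to 1.97 FPKM in CONTROL, Ppbp and Gp1bb were listed at 0 in every library, Pf4 did not pass 0.15 FPKM, Gp9 did not pass 0.82 FPKM, and Gp1ba was 0.11 to 1.31 FPKM in TEST and 0.31 to 1.97 FPKM in CONTROL. The part of platelets in the Itgb3 levels was not tested.

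Itga6, which with Itgb1 binds laminin, had 8.61, 14.29, 29.49, 65.08, 11.54 and 52.91 FPKM in TEST 1 to TEST 6, against 22.72, 54.16, 43.26 and 46.52 FPKM in CONTROL 1 to CONTROL 4. TEST libraries lay on both sides of the CONTROL range. The log2 difference was -0.75 ± 0.5 (SE), which did not pass (limma adjusted p = 0.527).

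Itgal, the alpha chain of the ICAM receptor, had 43.04, 38.51, 44.05, 75.09, 37.94 and 29.97 FPKM in TEST 1 to TEST 6, against 46.94, 47.22, 34.87 and 26.39 FPKM in CONTROL 1 to CONTROL 4. Itgav, which pairs with several beta chains, had 22.46, 19.69, 13.52, 18.78, 24.42 and 10.93 FPKM in TEST 1 to TEST 6, against 27.01, 14.62, 11.73 and 7.78 FPKM in CONTROL 1 to CONTROL 4. Both overlapped widely between the groups, with log2 differences of 0.18 ± 0.26 for Itgal and 0.33 ± 0.32 for Itgav (SE).

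Itgb2, the partner of Itgal, was 41.17 to 93.24 FPKM in TEST (mean 64.8) and 49.27 to 73.21 FPKM in CONTROL (mean 61.0). Its log2 difference was 0.04 ± 0.25 (SE), and was negative after rescaling to TPM or without ribosomal RNA rows. Itgb7, the partner of Itgae and Itga4, was 25.27 to 143.02 FPKM in TEST (mean 53.6), with the highest in TEST 4, and 18.32 to 47.16 FPKM in CONTROL (mean 33.4). Itga3, a laminin receptor chain, was 1.2 to 3.57 FPKM in TEST (mean 2.04) and 1.13 to 1.74 FPKM in CONTROL (mean 1.34). Itgb8, which with Itgav activates latent TGF-beta, was 0.37 to 5.81 FPKM in TEST (mean 3.5) and 2.66 to 16.13 FPKM in CONTROL (mean 6.31), where CONTROL 1 was highest. The ranges of all 4 overlapped between the groups, and none of them, nor Itgal or Itgav, had an unadjusted p under 0.05 in limma.

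At an unadjusted p under 0.05 stood 6 of 14 members (Lama5, Itgb1, Itgae, Itga4, Itga2 and Itgb3), or 42.9%, against 13.7% of all tested genes. The members were chosen with earlier results of these data known, so their share is a description and no test of the set. The log2 difference was positive for 11 members and negative for 3, with a median of 0.33, while the median over all genes was 0. With 6 TEST and 4 CONTROL libraries, a gene high in TEST alone passed the filter more easily than 1 high in CONTROL alone. Itga2 reached 1 FPKM in 6 libraries, of which only CONTROL 1 was a CONTROL library. Itga5, lower in every TEST library, reached it in 3 and was not tested. These counts are therefore not free of the filter. Rescaling to TPM moved the median of all genes by -0.15 and leaving out ribosomal RNA rows by -0.13.

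**Figure D2:**
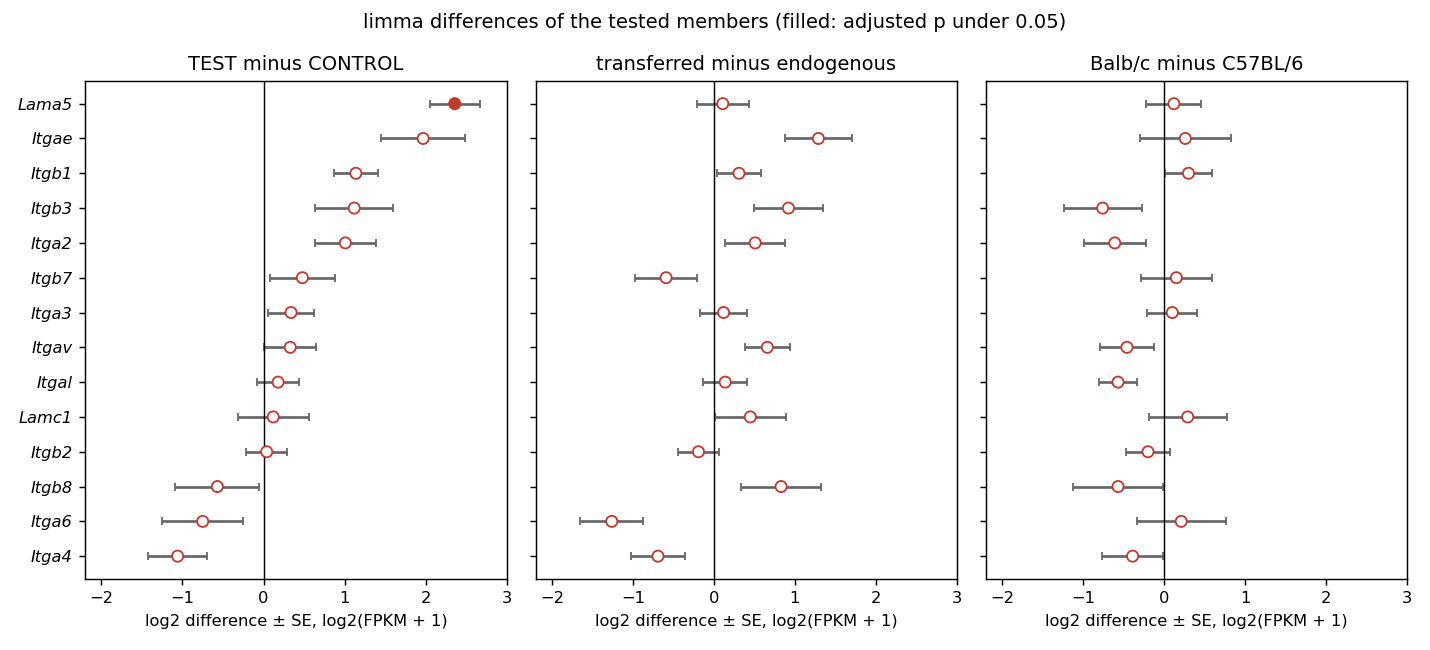
Log2 differences of the 14 tested members with their SE from limma, on log2(FPKM + 1), for TEST minus CONTROL (left), transferred minus endogenous T cells (middle) and Balb/c minus C57BL/6 (right), the last pair adjusted for group. Only Lama5 is filled, for an adjusted p of 0.0247 in the left panel, and its differences in the other panels are 0.11 and 0.12.

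The make-up of the beta chains was read as shares. Itgb2 took 21% to 30.9% of the summed beta chain FPKM in TEST and 33.1% to 48.2% in CONTROL, without overlap. Itgb1 took 28.9% to 43.4% in 5 TEST libraries and 14.4% in TEST 4, against 17.0% to 29.7% in CONTROL. In TEST 4 Itgb7 took 46.8%. Beside this, the beta chain sum was 179.0 to 305.9 FPKM in TEST and 104.5 to 169.2 FPKM in CONTROL. The FPKM of Itgb2 itself overlapped between the groups, with a log2 difference of 0.04. Its lower share in TEST thus goes with the higher sum and not with a lower level of Itgb2. These shares are descriptions with no test.

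Among the alpha chains, whose sum was 119.2 to 232.3 FPKM in TEST and 133.8 to 175.5 FPKM in CONTROL, Itgal took a like share throughout (20.6% to 32.3% in TEST, 19.7% to 30.7% in CONTROL). Itgae took a median of 18.4% in TEST and 3.58% in CONTROL, and Itga4 a median of 13.8% in TEST and 28.0% in CONTROL. Itga6 ranged from 6.18% to 36.3% in TEST and from 14.9% to 34.8% in CONTROL. The order of the most abundant chains differed from library to library.

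**Figure D3:**
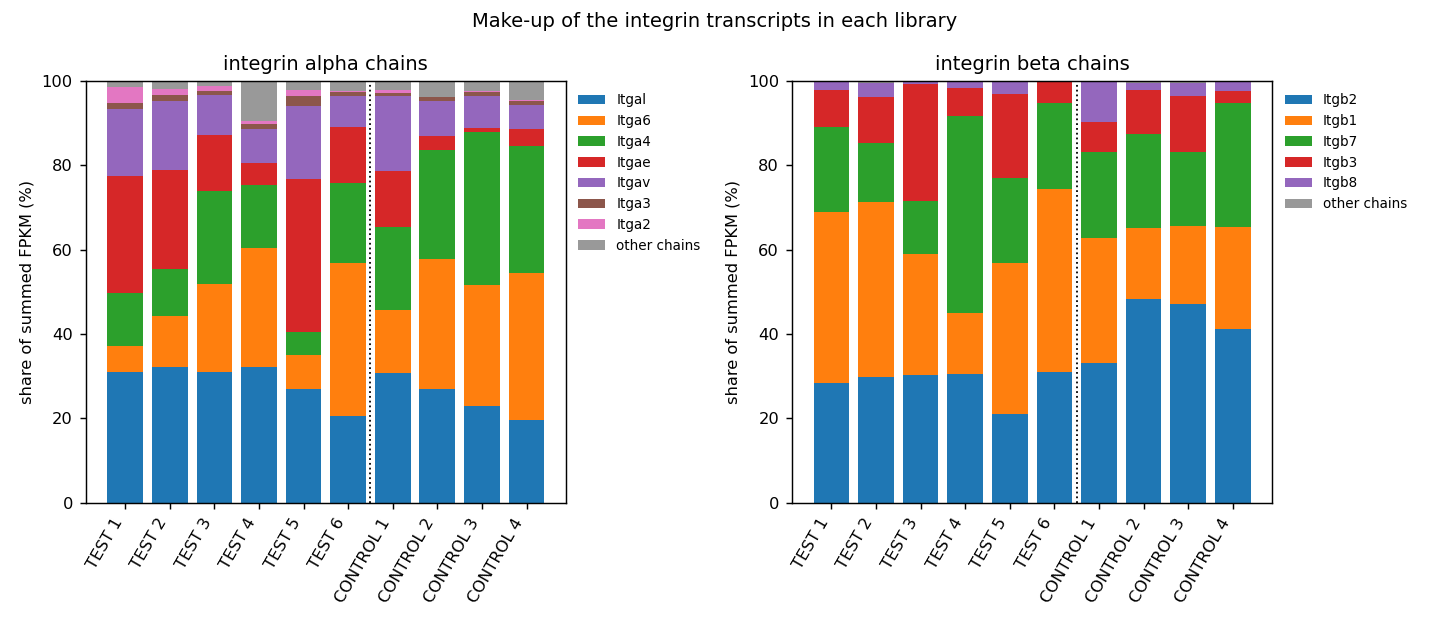
Share of the summed FPKM of all integrin alpha chains (left) and beta chains (right) taken by each chain, with 1 bar for each library and a dotted line between TEST and CONTROL. The Itgb2 part is at most 30.9% in TEST and at least 33.1% in CONTROL, while the FPKM of Itgb2 itself overlaps between the groups.

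The T cells had been transferred in 6 libraries (TEST 1, TEST 2, TEST 3, TEST 5, CONTROL 1 and CONTROL 2) and were the mouse's own in 4, so the members were also compared by origin with the group as covariate. limma called no gene at an adjusted p under 0.05 (0.0% of genes), and 10.5% had an unadjusted p under 0.05, as had 3 of 14 members (Itga6, Itgae and Itgav). Itga6 was 8.61 to 54.16 FPKM in transferred cells (n = 6) and 43.26 to 65.08 FPKM in endogenous cells (n = 4), and only CONTROL 2 among transferred cells reached the range of the endogenous ones. Its log2 difference was -1.26 ± 0.39 (SE, limma adjusted p = 0.342). Itgae was 5.58 to 50.77 FPKM in transferred and 1.22 to 19.19 FPKM in endogenous cells (1.29 ± 0.41, limma adjusted p = 0.349). Itgav was 13.52 to 27.01 FPKM in transferred and 7.78 to 18.78 FPKM in endogenous cells (0.66 ± 0.28, limma adjusted p = 0.429). The median over all genes in this comparison was -0.13.

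**Figure D4:**
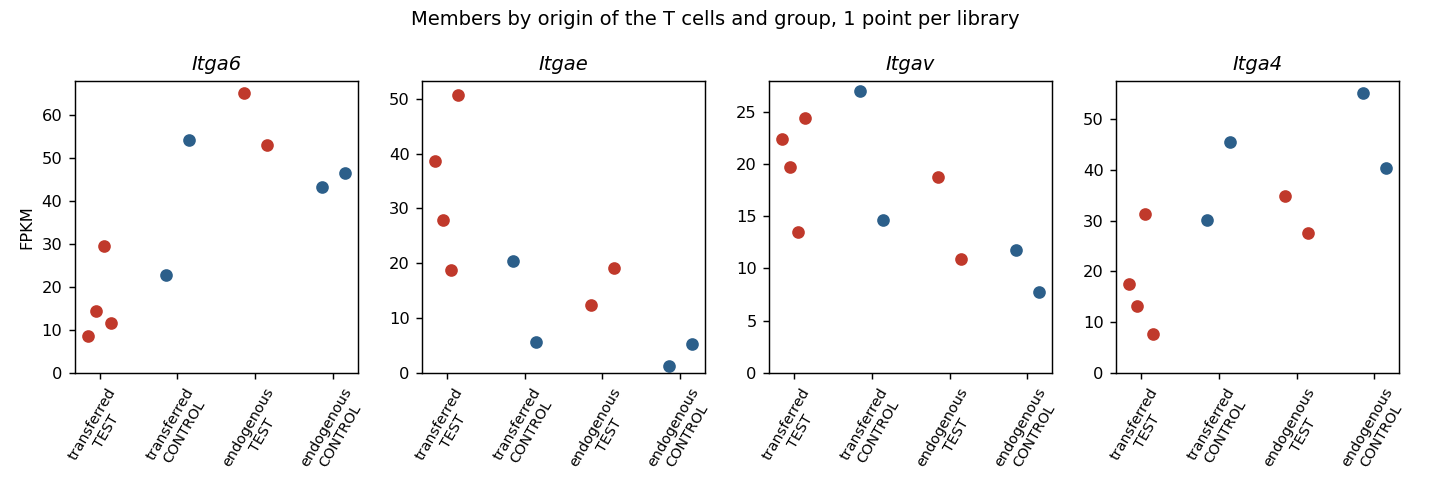
FPKM of Itga6, Itgae, Itgav and Itga4 with 1 point for each library (red, TEST, blue, CONTROL), by origin of the T cells and group. Itga6 is 8.61 to 29.49 FPKM in transferred TEST cells and 52.91 and 65.08 FPKM in endogenous TEST cells, whereas Itgae is higher in TEST than in CONTROL by its mean within both origins.

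Between the strains, with the group as covariate, 64 genes were called (0.596%) and no member. At an unadjusted p under 0.05 stood 9.07% of genes and 1 of 14 members, Itgal, which was 26.39 to 37.94 FPKM in Balb/c (n = 3) and 34.87 to 75.09 FPKM in C57BL/6 (n = 7). All 3 Balb/c libraries lay below 6 of the 7 C57BL/6 libraries, and TEST 5 lay above the spleen library, for a log2 difference of -0.57 ± 0.24 (SE, limma adjusted p = 0.488). Whether TEST differed from CONTROL by another amount in Balb/c than in C57BL/6 was tested as an interaction, which called no gene (0.0%) and had an unadjusted p under 0.05 in 2.07% of genes and in no member. With 1 Balb/c CONTROL library the SE of this term was large, 0.74 for Lama5 around an estimate of -0.31.

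TEST 1 and TEST 2 give the draining and the non-draining node of the same 4 mice, 1 library each and so with no test. Itga2 was 5.3 FPKM in the draining and 1.58 FPKM in the non-draining node, 3.35-fold. Itga6 was 8.61 FPKM in the draining and 14.29 FPKM in the non-draining node, and Itgb8 was 3.22 FPKM in the draining and 5.81 FPKM in the non-draining node, 1.66-fold and 1.8-fold higher in the non-draining node. The other 11 tested members differed by less than 1.5-fold, among them Lama5 (18.4 FPKM draining, 12.77 FPKM non-draining) and Itgb1 (73.23 FPKM draining, 74.06 FPKM non-draining).

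Of the integrins below the filter, 4 reached 1 FPKM in some library. Itga5, the fibronectin receptor chain, was 0.09 to 0.51 FPKM in TEST and 0.56, 2.98, 1.11 and 1.52 FPKM in CONTROL 1 to CONTROL 4. Every CONTROL library thus lay above every TEST library, by 0.56 against 0.51 FPKM at the edge. These levels were too low for the test, and the share of untested genes so separated was not counted. Itga7, a laminin receptor chain of muscle, was 14.88 FPKM in TEST 4 and 0.3 to 1.12 FPKM in the other libraries. Itgam, the myeloid partner of Itgb2, was 4.47 FPKM in TEST 4 and 1.89 FPKM in CONTROL 4, and under 1 FPKM elsewhere. Itga2b reached 1.77 FPKM in TEST 6, 1.04 FPKM in CONTROL 2 and 1.25 FPKM in CONTROL 4. The other 10 (Itga1, Itga8, Itga9, Itga10, Itga11, Itgad, Itgax, Itgb4, Itgb5 and Itgb6) never passed 0.91 FPKM, and only Itgb5 of them was above 0 in all 10 libraries, at 0.21 to 0.84 FPKM.

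The genes around the integrins were read from lists, and limma called none of their genes in either direction. At an unadjusted p under 0.05 stood 5 tested genes of activation and adaptors, 1 of the adhesion complex, 1 laminin receptor, 4 of the TGF-beta pathway and 4 of tissue residence, and none of the ligands, where the share over all tested genes was 13.7%. Of 22 genes for integrin activation and adaptors, 17 were tested, with 12 positive and 5 negative differences and a median of 0.13. Fermt3 (kindlin-3, which binds beta chain tails) was 22.7 to 70.07 FPKM in TEST and 13.01 to 21.26 FPKM in CONTROL, without overlap, at a log2 difference of 0.91 ± 0.29 (limma adjusted p = 0.221). Cyth3 and Apbb1ip, which act on integrins through ARF and Rap GTPases, had differences of -0.96 and -0.62. Of 27 adhesion complex genes 21 were tested, 11 positive and 10 negative, with a median of 0.16. Actn1, an actin crosslinker at adhesions, was 1.95 to 20.01 FPKM in TEST and 14.31 to 47.02 FPKM in CONTROL (-2.05 ± 0.56, limma adjusted p = 0.158), and Zyx and Parvg had differences of 0.66 and 0.41.

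Ligands were mostly below the filter. Of 9 cell surface ligands 3 were tested, namely Cdh1 (E-cadherin, the partner of Itgae, 0.77), Icam1 (0.35) and Icam2 (-0.16), with a median log2 difference of 0.35. Of 21 matrix and basement membrane genes listed 4 were tested, all positive with a median of 0.32. Fn1 (fibronectin, 0.35) was 0.85 to 4.3 FPKM in TEST and 1.28 to 1.64 FPKM in CONTROL. Agrn (0.37) was 0.39 to 4.13 FPKM in TEST, highest in TEST 4, and 0.41 to 1.14 FPKM in CONTROL. Tnc (0.29) was 0.15 to 3.55 FPKM in TEST, highest in TEST 5, and 0.21 to 1.1 FPKM in CONTROL. These levels were low and overlapped between the groups. Of 5 laminin receptors other than integrins 2 were tested. Dag1 (dystroglycan) was 2.69 to 8.98 FPKM in TEST and 8.27 to 14.79 FPKM in CONTROL (-0.97 ± 0.3, limma adjusted p = 0.216). Rpsa had a difference of 0.66, with 2375 FPKM in TEST 4. It was 334.76 to 650.58 FPKM in the other TEST libraries and 362.35 to 464.09 FPKM in CONTROL.

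TGF-beta is known to induce Itgae in T cells. Of 14 genes of its pathway 13 were tested, 2 positive and 11 negative, with a median of -0.41. Tgif1, a corepressor of Smad proteins, was 25.08 to 68.53 FPKM in TEST and 82.19 to 104.05 FPKM in CONTROL (-1.06 ± 0.24, limma adjusted p = 0.117). Smad7, an inhibitor of the pathway, was 14.17 to 23.93 FPKM in TEST and 26.05 to 33.96 FPKM in CONTROL (-0.66 ± 0.2, limma adjusted p = 0.193), and Smurf2, which marks the receptor for degradation, had a difference of -0.67. Tgif1 and Smad7 did not overlap between the groups, which their choice by smallest p favours.

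Of 11 symbols listed for T cells that stay in tissues, of which Zfp683 and Hobit name the same gene, 9 were tested. They were 7 positive and 2 negative, with a median of 0.7. Rgs1, a brake on chemokine receptor signalling, was 288.26 to 633.42 FPKM in TEST and 127.86 to 321.2 FPKM in CONTROL (1.27 ± 0.32, limma adjusted p = 0.138). Ahr, a transcription factor of barrier lymphocytes, was 6.95 to 25.76 FPKM in TEST and 1.64 to 6.45 FPKM in CONTROL (1.61 ± 0.41, limma adjusted p = 0.138), without overlap. Cxcr6, a chemokine receptor, was 16.28 to 142.63 FPKM in TEST and 7.17 to 42.69 FPKM in CONTROL (1.76 ± 0.61, limma adjusted p = 0.251).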

How the data were processed

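RNA from CD4+ T cells of 10 mouse libraries (6 TEST, 4 CONTROL, from 9 mice or pools) was sequenced by Beijing Genomics Institute on Illumina HiSeq and aligned by the authors to mm10 with Bowtie. BWA and RSEM are also named in the submitters' processing notes, versions not given. The deposited values are FPKM computed by the authors for 17457 genes, 1 column for each library, with ribosomal RNA rows included. Strand use and ribosomal RNA removal are not given in the sources used here. The table holds no counts, so depth is known only as a ratio: the most common ratio of values between 0.15 and 1 FPKM gave 0.637 to 1.2 times that of TEST 1. CONTROL libraries had 0.637 to 0.847, TEST 2 to TEST 5 had 0.88 to 1.2 and TEST 6 had 0.771.

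The 10743 genes that reached 1 FPKM in 4 or more libraries were tested with limma 3.58.1 (R 4.3.3, trend on, robust off) on log2(FPKM + 1), two-sided, with Benjamini-Hochberg adjustment over all of them and a call at an adjusted p under 0.05. No covariate was used for TEST against CONTROL. The study's own count methods could not be used on FPKM. Strain and transfer were fitted with group as covariate. Tests were checked on simulated data. TEST 1 and TEST 2 share mice, so p-values take them as more independent than they are.

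Members follow the symbol rule, and 1 of them is not reported here. Values in every library are given for Lama5, Itgae, Itga4 and tested members with an unadjusted p under 0.05 in any comparison or with groups that do not overlap, and 3 genes of each pathway list by smallest p. Members and lists were chosen with earlier results of these data known. Positions come from RefSeq on GRCm38.p6, the assembly also called mm10, and overlaps from GENCODE. Alternatives were other pseudocounts, filters, scalings, a strain covariate, C57BL/6 alone, an average of TEST 1 and TEST 2, and leaving out each library.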

Additional observations from a re-analysis of the deposited data

Results flagged for a closer look

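For 19 members that reached 1 FPKM in some library, the highest and the lowest library of each group were checked for a gap to the next library that is large against the range of the group, which chance gives in about 1 in 20 groups. Of 38 groups, 7 showed such a gap, 5 of them in TEST 4. Lamb3 reached 1 FPKM only in TEST 4, and Itga7 and Itgam each in 2 libraries, TEST 4 among them. These members were thus checked wholly or partly because TEST 4 was high, and the rate of 1 in 20 does not hold for them.

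TEST 4 was the highest TEST library for Itga7 (14.88 FPKM, with the others at 0.3 to 1.12 FPKM), Itgam (4.47 FPKM), Itgb7 (143.02 FPKM) and Lamb3 (1.44 FPKM), and the lowest for Itgb1 (44.02 FPKM). Myeloid markers (5 genes found) summed to 17.2 FPKM in TEST 4 and to 2.91 to 8.69 FPKM in the other TEST libraries, and ribosomal RNA made up 1.18% of the FPKM sum of TEST 4. Of these markers, Lyz2 was 9.25 FPKM in TEST 4 and 0 to 1.16 FPKM in the other TEST libraries, Fcgr3 was 2.23 FPKM in TEST 4 and 0 in the others, Cd68 was 4.96 FPKM in TEST 4 and 2.79 to 7.19 FPKM in the others, and Csf1r and Cd14 were under 1 FPKM in every library. The part of these in the values was not tested. Itgb8 was 16.13 FPKM in CONTROL 1, with the other CONTROL libraries at 2.66 to 3.3 FPKM. CONTROL 3, the spleen, was lowest of its group for Itga7, at 0.52 FPKM, a gap of little size since all 4 lay between 0.52 and 0.68 FPKM.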

How the results depend on the processing

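No paired analysis was possible because the replicate numbers were given in accession order and pair nothing. Over 20 alternatives the Lama5 difference stayed positive (1.38 to 2.97) and its limma adjusted p was 0.00761 to 0.168. The number of members called was 1, and became 0 with a pseudocount of 5, with no filter, within C57BL/6 and with TEST 1 and TEST 2 averaged. Leaving out single libraries gave 0 to 2 members, with 2 without TEST 4 (Lama5, Itgb1) and without CONTROL 1 (Lama5, Itgae).

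Of all genes, 10 were called, against 20 with a pseudocount of 0.1, 0 with a pseudocount of 5, 1 with no filter, 5 with a filter at 5 FPKM, 21 after rescaling to TPM (13 higher and 8 lower, where the main split was 8 and 2), 21 with median-ratio scaling (14 and 7), 20 without ribosomal RNA rows (11 and 9), 28 with strain as covariate, and 0 with TEST 1 and TEST 2 averaged. Leaving out single libraries gave 0 to 84 genes, 84 without TEST 4.

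Only Itgb2 and Lamc1 changed sign, both close to 0. Itgb2 (0.04) was -0.12 after rescaling to TPM, -0.11 without ribosomal RNA rows, and -0.07 to 0.16 when single libraries were left out, below 0 without TEST 3 (-0.05), TEST 4 (-0.07) or CONTROL 3 (-0.05). Lamc1 (0.12) was -0.01 after rescaling to TPM, -0.35 within C57BL/6, and -0.2 to 0.59 when single libraries were left out, below 0 without TEST 5 (-0.08), CONTROL 2 (-0.2) or CONTROL 4 (-0.06). The cause was not tested. For strain and transfer, 12 alternatives chosen after seeing the data called no member. Groups mix strain, tissue, host and transfer, and with no counts the counting error of low genes such as Itga2 is not known.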
